A study of Mus musculus with 3 samples.

Results

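The nuclear genes of respiratory complex I were followed in the skeletal muscle of outbred ICR mice aged 42 days after birth. They were chosen by symbol, as the rows named Nduf followed by a, b, c, s or v and a digit, together with Ndufab1. Rows for assembly genes (Ndufaf) and for symbols ending in -ps were left out. The rule gave 38 of 24481 gene rows, of which 14 were Ndufa, 10 Ndufb, 2 Ndufc, 8 Ndufs and 3 Ndufv genes besides Ndufab1. Complex I is built from the products of 36 of them. The remaining names are historical, since Ndufa4 is now known to encode a protein of complex IV and Ndufa4l2 encodes its paralog, so both are described apart. There was 1 library in each of 3 groups, labelled control, exercise control and exercise SQH. By its title the study concerns fatigue and leaf extracts of the dwarf bamboo Sasa quelpaertensis, and the labels do not spell SQH out. Mice of all groups share stock, age and tissue by the labels, which do not give the muscle, the exercise, the dose or the number of animals behind a library. Libraries were made from the 3' ends of transcripts, so reads do not grow with transcript length and levels of different genes can be set side by side. With 1 library per group there is no replicate error and no p-value. The ± beside a difference is the standard error of counting reads alone, and every level is the deposited log2 value.

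Complex I is the entry point of the mitochondrial respiratory chain. It takes electrons from NADH at the tip of an arm that projects into the matrix (the N module), passes them along iron-sulfur clusters to ubiquinone at the foot of that arm (the Q module), and uses the energy to pump protons through a membrane arm. Its catalytic core is encoded partly in the nucleus and partly in mitochondrial DNA, and the accessory subunits around the core are nuclear. Skeletal muscle depends on it for sustained work, and slow fibres hold more mitochondria than the fastest fibres. The mitochondrially encoded subunits were not analysed here.

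The libraries held about 10.8, 8.17 and 12.3 M reads in the control, exercise control and SQH group, as estimated from the spacing of low values. The 6 skeletal muscle genes checked were abundant in all 3 libraries, with Acta1, skeletal actin, at 18.56, 18.34 and 19.01 and Ckm, muscle creatine kinase, at 16.59, 17.24 and 17.08. The exercise control library stood apart in its fibre-type and nerve genes. Of 15 slow-fibre contractile genes, 12 lay at least 2-fold below the control there and none was at 0 in any library. Their linear levels summed to 583140 (control), 64243 (exercise control) and 465467 (SQH). The summed level of 15 fast-fibre genes was 825919, 1093787 and 695930 in the same order. All 10 nerve and Schwann cell markers were above 0 in every library, with summed levels of 1274, 4470 and 1395. The summed level of 11 adipocyte markers was 8437, 8592 and 10703, with Cidec, Lep, Retn and Ucp1 at 0 in at least 1 library. Most of that sum came from Fabp4 (11.93, 11.72 and 12.19) and Plin4 (12.02, 12.30 and 12.41). Of the 5 adipocyte markers past the minimum on level used below, 1 lay above the control in the exercise control and 4 lay below, 2 of them by at least 2-fold. In bulk muscle, fewer cells of a type and less RNA per cell cannot be told apart. The part of these markers in the complex I values was not tested. Both comparisons with the exercise control carry them, and exercise plus SQH against control leaves that library out.

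All 38 genes were above 0 in all 3 libraries, and 37 had a mean linear level of 66.5 or more, which is the median over the 15714 rows with a value above 0. Ndufa4l2 was below that minimum. Of the 37, 36 also lay at or above the upper quartile of level (271), Ndufab1 being the exception. The median level of the 37 was 11.33 (control), 11.45 (exercise control) and 11.24 (SQH). Summed over all 38 genes, the linear level made up 1.33% (95% exact binomial interval 1.33 to 1.34) of the control library without ribosomal precursor RNA. The share was 1.42% (1.41 to 1.43) in the exercise control and 1.297% (1.29 to 1.303) with SQH, and these intervals cover counting alone. The share was thus highest in the library whose slow-fibre genes were lowest. Slow-fibre genes are part of the total behind the share, so the share and their level are not independent. Without the single gene Ndufs6, a split chosen after the values were seen, the share was 1.231%, 1.255% and 1.199% in the same order, so the exercise control was still the highest but by less. The unscaled linear sum without Ndufs6 was 113146, 110070 and 105534, which put the exercise control between the other libraries on that scale.

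**Figure D1:**
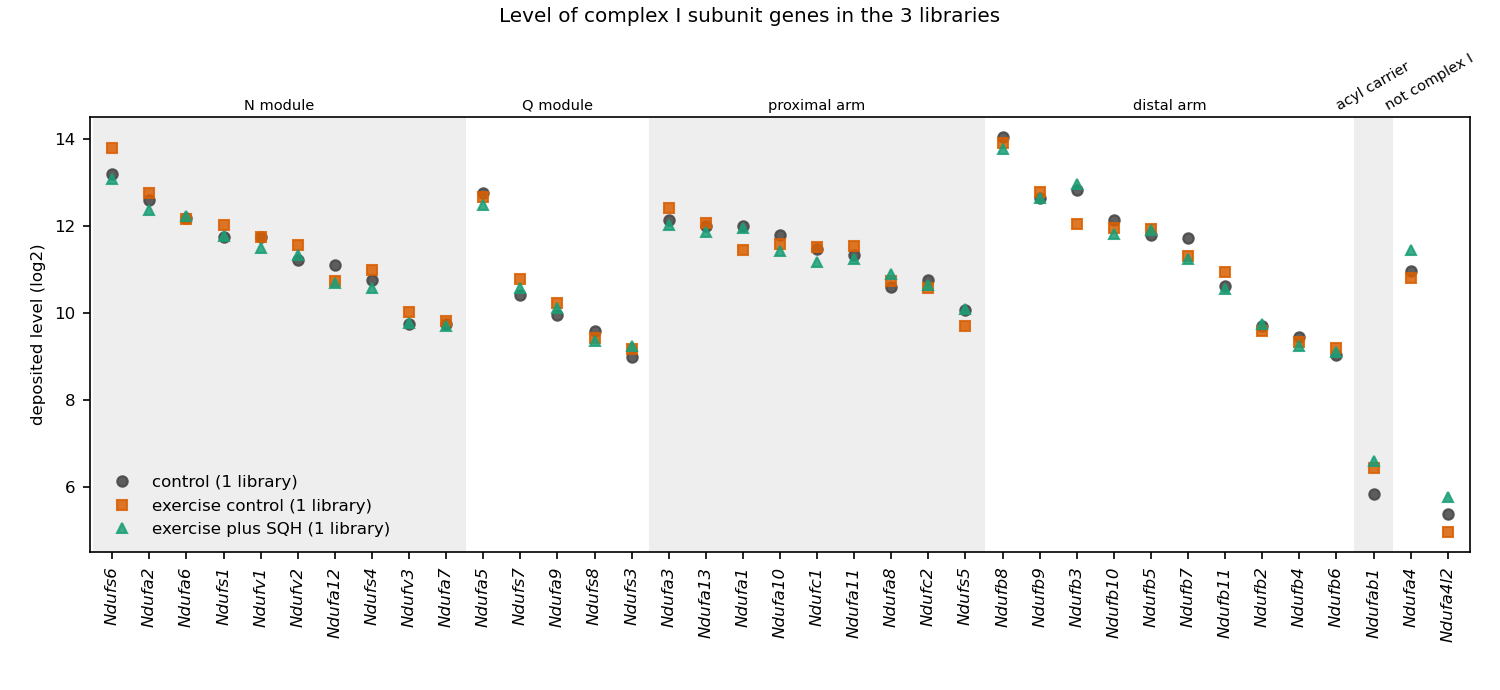
Deposited log2 level (vertical axis) of 37 of the 38 genes (horizontal axis), grouped by the part of the complex and ordered by mean level within it; each symbol is 1 library (circle control, square exercise control, triangle exercise plus SQH). The symbols of most genes lie close together, while subunit genes spread from Ndufs3 at 8.97 to Ndufb8 at 14.04 in the control, with Ndufab1 far below at 5.84.

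The genes differed among themselves more than between libraries. Ndufb8, an accessory subunit of the distal membrane arm, had the highest level in each library, at 14.04, 13.91 and 13.77 (control, exercise control, SQH). Its linear level was 32.4, 26.4 and 25.2 times that of Ndufb6, another distal-arm subunit, which stood at 9.03, 9.19 and 9.11. Ndufb6 shares 257 exonic bases with Smim27 on the opposite strand, and Ndufb8 shares 134 with Gm20538 on its own strand. The part of these overlaps in the ratio was not tested. Ndufs6 ranked 2 in all 3 libraries, and Ndufb9 ranked 5, 3 and 4. Of the 6 highest genes in each library, 5 were common to all 3, and the 6 together held 43.3%, 44.6% and 41.96% of the summed level. The SD of the 37 levels was 1.51, 1.45 and 1.39 in the 3 libraries. Over the 3 libraries the range of a gene (highest minus lowest log2 value) had a median of 0.295 among the 37, against 0.485 among all 7857 rows past the minimum and 0.409 among rows in the upper quartile of level. The range was under 0.5 for 32 of 37 genes (86.5%), against 51.6% of all rows and 61.7% of the upper quartile. These sets were not matched for read depth, which also narrows a range. In exercise control against control the median counting standard error was 0.04 for the 37 and 0.13 for all rows.

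The 38 genes lie on 15 chromosomes, Ndufa1 and Ndufb11 being the 2 on the X. Their longest coding transcripts had a median of 952.5 bases, against 3233 bases for the 7417 rows past the minimum that match a coding transcript. RefSeq promoter windows of 300 bases (250 before and 50 after the start, build GRCm38.p6) were matched for 33 of the 38 genes, in 35 windows with a median GC content of 59.0%, against 52.7% over all 32851 windows. Motifs of 4 regulators were searched on both strands, and in no window of these genes did hits of different motifs share a base. The motif of nuclear respiratory factor 1 (NRF1) stood in 8 of the 35 windows, and in 4.6% of all windows. AAGATGGCG, the letters of YY1, stood in 5 of the 35 and in 1.4% of all. CCGGAAG, shared by ETS factors such as GABP, stood in 4 of the 35 and in 8.86% of all, and AAGGTCA, of estrogen-related receptors, in 3 of the 35 and in 4.72% of all. A match is a description of letters, not a site of binding.

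The promoters below belong to the genes furthest below (Ndufb3, Ndufa1) and furthest above (Ndufs6, Ndufab1) the control in the exercise control library, so that their letters can be read beside the values that follow. They are written 5′ to 3′ on the gene's own strand, in lower case with matches to the 4 motifs in capitals. Ndufb3 is chr1:58586147-58586446 (plus strand), Ndufa1 is chrX:37191189-37191488 (minus), Ndufs6 is chr13:73328433-73328732 (minus) and Ndufab1 is chr7:122101799-122102098 (minus).
Ndufb3: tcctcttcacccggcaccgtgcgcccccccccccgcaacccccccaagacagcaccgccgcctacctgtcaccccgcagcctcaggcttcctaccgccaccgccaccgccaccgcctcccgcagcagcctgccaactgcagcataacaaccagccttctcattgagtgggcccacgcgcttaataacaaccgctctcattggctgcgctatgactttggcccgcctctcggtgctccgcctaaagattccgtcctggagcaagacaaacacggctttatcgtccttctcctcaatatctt
Ndufa1: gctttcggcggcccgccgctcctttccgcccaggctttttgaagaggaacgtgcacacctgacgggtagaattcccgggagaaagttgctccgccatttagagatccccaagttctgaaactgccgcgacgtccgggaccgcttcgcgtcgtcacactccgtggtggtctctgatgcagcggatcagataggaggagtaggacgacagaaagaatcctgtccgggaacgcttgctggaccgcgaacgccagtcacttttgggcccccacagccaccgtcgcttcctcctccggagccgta
Ndufs6: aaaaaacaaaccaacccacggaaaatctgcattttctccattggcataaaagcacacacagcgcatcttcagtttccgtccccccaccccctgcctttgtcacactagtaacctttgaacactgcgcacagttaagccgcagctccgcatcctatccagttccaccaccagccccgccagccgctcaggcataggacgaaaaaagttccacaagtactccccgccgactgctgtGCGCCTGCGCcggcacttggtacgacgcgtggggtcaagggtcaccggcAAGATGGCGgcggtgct
Ndufab1: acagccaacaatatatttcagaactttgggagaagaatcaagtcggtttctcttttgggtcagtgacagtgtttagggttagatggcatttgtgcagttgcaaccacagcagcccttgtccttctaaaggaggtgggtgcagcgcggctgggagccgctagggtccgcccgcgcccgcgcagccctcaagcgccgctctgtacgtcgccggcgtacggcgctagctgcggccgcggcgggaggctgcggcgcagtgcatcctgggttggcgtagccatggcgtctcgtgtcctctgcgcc
The Ndufs6 window holds an NRF1 match that begins at -16 and a YY1 match that begins at 33, counted from the annotated start at 0. The windows of Ndufb3, Ndufa1 and Ndufab1 hold none of the 4 motifs.

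The exercise control was first compared with the control. No subunit gene reached a 2-fold difference, while Ndufb3 was lower and Ndufs6 higher by more than 1.5-fold and the rest lay closer to the control. The count at 2-fold was 0 of 37, where 8.29% of all 7857 rows past the minimum and 5.93% of those in the upper quartile of level were called. At 1.5-fold (0.585 on the log2 scale) it was 2 of 37, against 25.6% of all rows and 20.0% of the upper quartile. That was 1 gene higher, where 10.1% of all rows were, and 1 lower, where 15.5% were. The median difference of the 37 was 0.07, with 21 above 0 and 16 below, and that of all rows was -0.04, with 46.3% above 0. The median had the opposite sign, -0.11, over the 21 genes that share no exonic base with another gene. The middle of the differences was narrow, with an interquartile range of 0.40 against 0.65 for all rows and 0.55 for rows in the upper quartile. For 29 of the 37 genes (78.4%) the 95% counting interval of the difference left out 0, as for 61.3% of all rows, and this interval covers neither animals nor library preparation. The median counting standard error was 0.04 for the 37 genes and 0.13 for all rows, so these shares were taken at unlike read depth.

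In the N module, 7 of 10 genes lay above the control and the median difference was 0.19. Ndufs6, which encodes a zinc-binding accessory subunit needed to complete the N module, stood at 13.20 (control), 13.80 (exercise control) and 13.08 (SQH). The exercise control was the high library, and the other libraries were close together. The difference was 0.60 ± 0.02, and 7.65% of the summed level of the 38 genes came from Ndufs6 (control), 11.5% (exercise control) and 7.58% (SQH). The gene lies on chromosome 13 (73319838 to 73328542, minus strand, GRCm38) and shares 30 exonic bases with Mrpl36 on the opposite strand. Its last 300 transcript bases match a transcript of Ndufs6b at 97.7% over 175 bases, so part of its reads could be placed either way. Mrpl36 stood at 7.33, 7.44 and 7.58, far below Ndufs6.

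The NADH-binding end of the module is formed by 3 core subunits. Ndufv1, which carries the flavin where NADH is oxidised, stood at 11.75, 11.73 and 11.49 (control, exercise control, SQH). Ndufv2, an iron-sulfur protein beside it, stood at 11.21, 11.55 and 11.33. Ndufs1, the large iron-sulfur subunit, stood at 11.75, 12.03 and 11.77. Against the control, the exercise control differed by -0.02 ± 0.04 for Ndufv1, 0.34 ± 0.04 for Ndufv2 and 0.27 ± 0.03 for Ndufs1, so Ndufv2 and Ndufs1 were highest in the exercise control and Ndufv1 was level in 2 libraries and lower with SQH. Ndufs1 shares 489 exonic bases with Ino80dos, a long noncoding RNA gene on the opposite strand, which stood at 6.08, 6.25 and 5.50. Ndufs4, an accessory subunit whose loss causes Leigh-like disease in mice, stood at 10.75, 10.98 and 10.57 (0.23 ± 0.05 in the exercise control). Ndufa2, with a thioredoxin-like fold, stood at 12.60, 12.75 and 12.36 (0.15 ± 0.03). Ndufa12, an accessory subunit near the junction of the N and Q modules, lay on the other side, at 11.10, 10.72 and 10.69, which is -0.38 ± 0.05 in the exercise control. Ndufa6, Ndufa7 and Ndufv3, the other accessory genes of the module, differed by -0.02, 0.07 and 0.29.

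In the Q module, 4 of 6 genes lay above the control, with a median of 0.11. Ndufs7, which holds the last iron-sulfur cluster before ubiquinone, stood at 10.41 (control), 10.77 (exercise control) and 10.56 (SQH) (0.36 ± 0.05). Ndufs3, a core subunit without a cofactor, stood at 8.97, 9.16 and 9.24 (0.19 ± 0.09), and Ndufs8, another iron-sulfur subunit, at 9.59, 9.41 and 9.36 (-0.17 ± 0.08). For Ndufs3 and Ndufs8 the difference was little more than 2 counting standard errors. Ndufa9, a nucleotide-binding accessory subunit at the junction with the membrane, stood at 9.94, 10.22 and 10.10 (0.28 ± 0.06), and Ndufa5 differed by -0.095. Over the 7 nuclear core genes of both modules the median difference was 0.19, with 5 above 0 and 2 below. The other 30 genes past the minimum had a median of 0.05, with 16 above 0 and 14 below.

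The membrane arm held the genes furthest below the control. Ndufb3, an accessory subunit of the distal arm, stood at 12.82 (control), 12.04 (exercise control) and 12.97 (SQH). The exercise control was the low library, and the other libraries were within 0.14 of each other. The difference was -0.79 ± 0.03, and 85.2% of all rows past the minimum had a smaller absolute difference. The gene lies on chromosome 1 (58586384 to 58595964, plus strand) and shares no exonic base with another annotated gene. A transcript of Gm45930 matches the 3' end of Ndufb3 at 97.8% over 136 bases. Ndufa1, a small membrane protein of the proximal arm encoded on the X (37187588 to 37191163, minus strand), stood at 12.01, 11.45 and 11.95 (-0.56 ± 0.04), also lowest in the exercise control. Ndufs5, which faces the intermembrane space, stood at 10.05, 9.69 and 10.10 (-0.365 ± 0.07), again lowest in the exercise control.

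Ndufs5 has a near-identical copy with a row of its own. Its last 300 transcript bases match BC002163 at 99.3% over 274 bases, and BC002163 stood at 10.44 (control), 9.94 (exercise control) and 10.45 (SQH). Reads of either could have been given to the other, so both were also summed. The sum stood at 11.26, 10.82 and 11.28, a difference of -0.44 ± 0.05 in the exercise control, so the order of the libraries was the same for Ndufs5, its copy and their sum.

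Other membrane-arm genes lay closer to the control, on both sides of it. Ndufb7, on the intermembrane side of the distal arm, stood at 11.73, 11.31 and 11.24 (control, exercise control, SQH) (-0.41 ± 0.04). Ndufb11, the other X-linked gene, stood at 10.61, 10.95 and 10.55 (0.34 ± 0.05), and Ndufa3 of the proximal arm at 12.13, 12.42 and 12.02 (0.29 ± 0.03). Ndufb11 shares 117 exonic bases with Rbm10 on the opposite strand. The 2 X-linked genes thus lay on opposite sides of the control. Over the distal arm 4 of 10 genes were above the control with a median of -0.12, and over the proximal arm 5 of 9 with a median of 0.04. Differences of the arms' remaining genes ran from -0.19 for Ndufa10 to 0.20 for Ndufa11.

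Ndufab1 encodes the mitochondrial acyl carrier protein, which sits in both arms of the complex and also serves lipoic acid and iron-sulfur cluster synthesis. It stood at 5.84 (control), 6.42 (exercise control) and 6.60 (SQH), from about 60.9, 72.5 and 126 reads. The control was the low library, and the difference of the exercise control was 0.58 ± 0.25. Every other subunit gene of the complex stood at 8.97 or above in all 3 libraries. The gene lies on chromosome 7 (122085403 to 122101886, minus strand). Its 3' end is annotated 1412 bases further in GENCODE than in RefSeq, and the part of that distance in its level was not tested. Its 3' end also matches transcripts of Gm4459 at 100% over 229 bases and Ndufab1-ps at 99.6% over 232 bases, so its reads are uncertain.

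**Figure D2:**
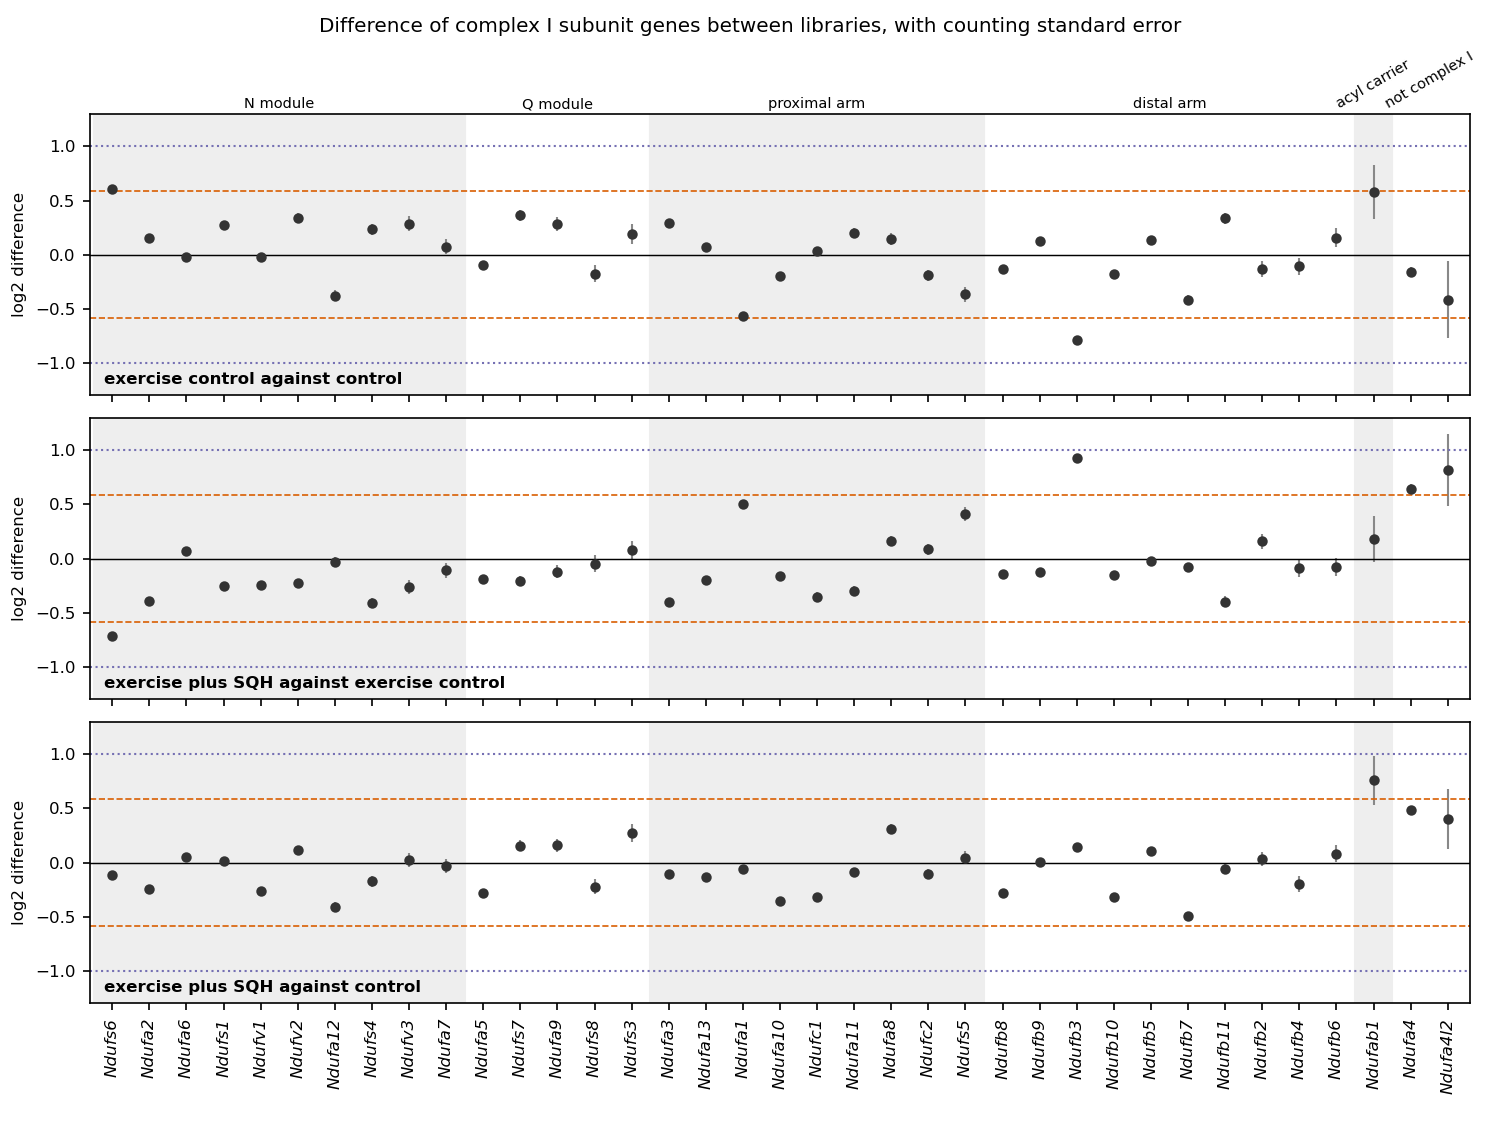
Log2 difference (vertical axis) of 37 of the 38 genes (horizontal axis, grouped as in the plot of levels) in the 3 comparisons, 1 panel each; bars are 1 counting standard error, dashed lines mark 1.5-fold and dotted lines 2-fold. No point reaches 2-fold in any panel; Ndufb3 lies at -0.79, 0.93 and 0.14 and Ndufs6 at 0.60, -0.72 and -0.12 from top to bottom.

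The next comparison was between both exercise libraries, with and without SQH. Most subunit genes stood slightly lower in the SQH library, Ndufs6 by the most, while Ndufb3 stood nearly 2-fold higher. Again 0 of 37 were called at 2-fold, where 8.01% of all rows and 5.55% of the upper quartile were. At 1.5-fold there were 3 of 37, with Ndufb3 and Ndufa4 higher and Ndufs6 lower, against 24.0% of all rows and 18.2% of the upper quartile. By direction, 14.8% of all rows were higher by 1.5-fold and 9.28% lower. The median difference was -0.12, with 11 genes above 0 and 26 below (29.7% above), while all rows had a median of 0.03 and 52.1% above 0. The exercise control library enters this comparison and the previous one, so the values of both are given side by side and are not separate evidence.

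Ndufb3 was higher with SQH by 0.93 ± 0.03, and 90.4% of all rows had a smaller absolute difference. Ndufa1 was higher by 0.50 ± 0.04 and Ndufs5 by 0.41 ± 0.07, or 0.46 ± 0.04 summed with its copy BC002163. In the N module 9 of 10 genes lay below the exercise control, with a median of -0.25. Ndufs6 was lower by the largest amount there (-0.72 ± 0.02), followed by Ndufs4 (-0.41 ± 0.05) and Ndufa2 (-0.39 ± 0.03). The core genes Ndufs1 (-0.25 ± 0.03), Ndufv1 (-0.24 ± 0.04) and Ndufv2 (-0.23 ± 0.04) shared that direction with nearly equal values. Ndufa6 (0.07 ± 0.03) was the 1 gene of the module above 0.

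In the Q module 2 of 6 genes lay above the exercise control, with a module median of -0.08. Ndufs3 was at 0.08 ± 0.08. Ndufs7 was at -0.21 ± 0.05 and Ndufs8 at -0.05 ± 0.08. The distal arm had 2 of 10 above 0 (Ndufb3 and Ndufb2) and a median of -0.08, with Ndufb11 lowest at -0.40 ± 0.05. The proximal arm had 4 of 9 above 0 and a median of -0.16, with Ndufa3 at -0.40 ± 0.03. The 7 core genes had a median of -0.21 and the other 30 one of -0.115, so these medians lay close to each other.

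The last comparison, of the SQH library with the control, leaves out the exercise control library. The genes stood near the control, with Ndufab1 as the 1 gene past 1.5-fold. At 2-fold 0 of 37 were called, where 3.02% of all rows and 1.48% of the upper quartile were. At 1.5-fold it was 1 of 37, higher, against 13.8% of all rows (7.41% higher) and 8.12% of the upper quartile. The median difference was -0.06, with 17 above 0 and 20 below, and the median of all rows was -0.015. Scaling the libraries to the same sum without ribosomal precursor RNA gave a median of 0.003 for the 37, so its sign rests on the scaling. The interquartile range was 0.33, against 0.50 for all rows, at unlike read depth (median counting standard error 0.04 and 0.12).

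Ndufab1 was higher by 0.76 ± 0.23, at the lowest read number of the 37 genes. The genes that had stood out in the exercise control were near the control here, with Ndufb3 at 0.14 ± 0.02, Ndufa1 at -0.06 ± 0.03, Ndufs5 at 0.04 ± 0.06 and Ndufs6 at -0.12 ± 0.02. The lowest were Ndufb7 at -0.49 ± 0.04 and Ndufa12 at -0.41 ± 0.04, which were also below the control in the exercise control library. Ndufa10, a proximal-arm subunit related to nucleoside kinases, stood at 11.78, 11.59 and 11.43 (control, exercise control, SQH) and was lower by 0.36 ± 0.03. Ndufb10, on the intermembrane side of the distal arm, stood at 12.13, 11.96 and 11.81 (-0.32 ± 0.03), and Ndufc1 at 11.48, 11.52 and 11.16 (-0.32 ± 0.04). For Ndufa10, Ndufb10, Ndufb7, Ndufa12, Ndufb8, Ndufa5, Ndufb4 and the core genes Ndufv1 and Ndufs8, the control was the highest library and SQH the lowest.

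On the other side, Ndufa8, a proximal-arm protein of the intermembrane space, stood at 10.59, 10.73 and 10.89, highest with SQH (0.31 ± 0.05). Ndufs3 was higher by 0.27 ± 0.08 and Ndufa9 by 0.16 ± 0.06. The Q module had 4 of 6 genes above the control and a median of 0.145, and the N module 4 of 10 and -0.07. Within the Q module Ndufs7 (0.155 ± 0.05) lay above the control and Ndufs8 (-0.22 ± 0.07) below. The proximal arm had 2 of 9 above the control and a median of -0.105, and the distal arm 5 of 10 and -0.03. Ndufb9, a distal-arm subunit of the family that binds the acyl carrier protein, stood at 12.64, 12.77 and 12.64 and had a difference of 0.00.

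Both genes with a complex I name but no place in the complex were highest with SQH and lowest in the exercise control. Ndufa4 stood at 10.97 (control), 10.80 (exercise control) and 11.45 (SQH). SQH was the high library, 0.645 ± 0.04 above the exercise control and 0.48 ± 0.04 above the control. Ndufa4 lies on chromosome 6 (11900292 to 11907497, minus strand). Ndufa4l2, a gene known to be induced by hypoxia, stood at 5.37, 4.95 and 5.77, from about 43.9, 26.2 and 70.8 reads. Its difference was -0.41 ± 0.36 in the exercise control and 0.82 ± 0.33 with SQH against it. With SQH against the control it was 0.40 ± 0.28, so the order against the control was not resolved by counting. Ndufa4l2 was not counted among the 37. Without these genes 36 remained, with medians of 0.07, -0.12 and -0.06 in the 3 comparisons.

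**Figure D3:**
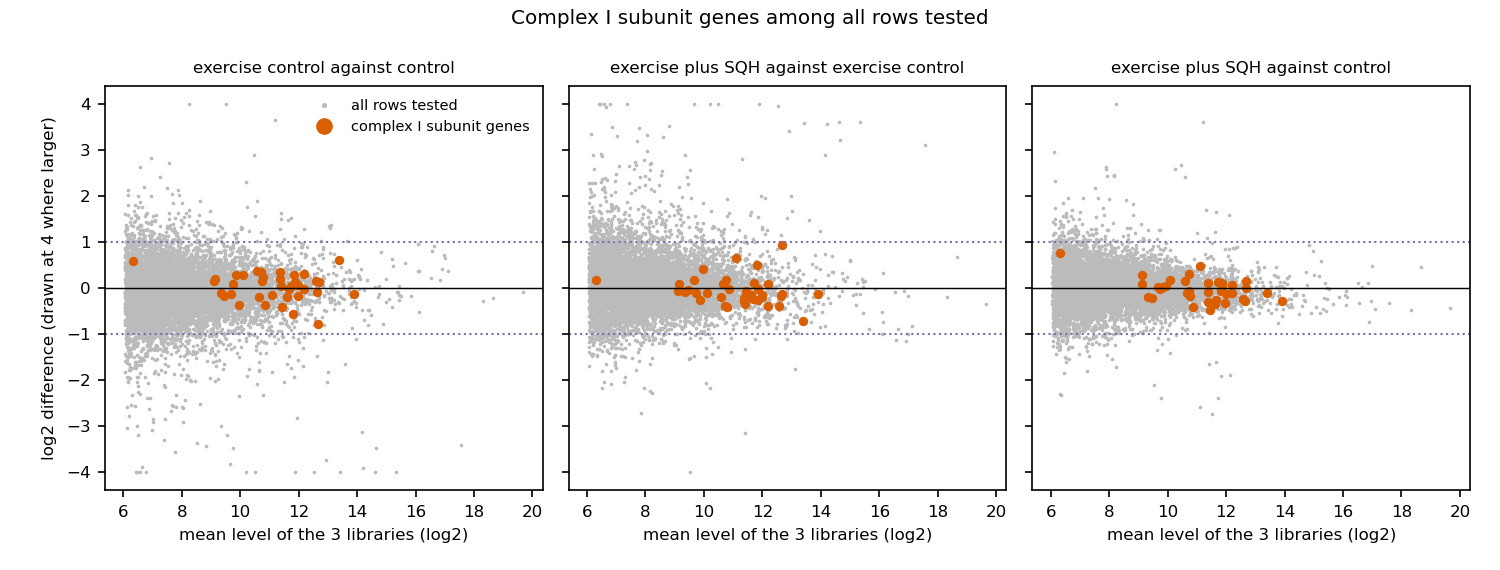
Log2 difference (vertical axis, drawn at 4 where larger) against the mean level of the 3 libraries (horizontal axis, log2) for all 7857 rows past the minimum (grey) and the 37 complex I genes (orange), 1 panel per comparison; dotted lines mark 2-fold. The 37 genes lie inside the dotted lines in each panel, where 8.29%, 8.01% and 3.02% of all rows lie outside.

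Across the 3 libraries, the exercise control was the highest library for 17 of the 37 genes (45.9%) and the lowest for 7 (18.9%). Among all rows past the minimum it was highest for 34.3% and lowest for 40.1%. These orders were taken on the deposited scale, without regard to counting error. Ndufa6, one of the genes lowest there, was at -0.02 ± 0.03 against the control and at 0.05 after centring the libraries on the median. Centring moved the share above the control from 46.3% to 52.1% of all rows and from 56.8% to 62.2% of the 37. Of the 17, only Ndufc1, Ndufv2, Ndufs4, Ndufs7, Ndufv3 and Ndufa7 share no exonic base with another gene. The 7 with the lowest value in the exercise control were Ndufb3, Ndufa1, Ndufs5, Ndufc2, Ndufb2, Ndufa6 and Ndufa4, and none of them is a core gene. Of these, only Ndufb2 shares exonic bases with another gene. The part of exonic overlap in the pattern was not tested. SQH was the lowest library for 18 genes and the highest for 9.

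Other genes of the pathway were counted by the same rule. Assembly factors, which build the complex without staying in it, numbered 23, of which 22 were found and 17 passed the minimum. Their median difference was -0.18 in the exercise control against control, with 7 above 0 and 10 below. Ndufaf7, a methyltransferase of the assembly pathway, stood at 5.66, 7.02 and 5.96 (control, exercise control, SQH), more than 2-fold higher in the exercise control (1.35 ± 0.24). Dmac1 (row Tmem261), a factor of the distal membrane arm, stood at 8.52, 7.48 and 8.30 (-1.04 ± 0.14). The exercise control was thus the extreme library for both. Nubpl, an iron-sulfur assembly factor below the minimum, was listed at 0 in the exercise control and at 4.86 and 4.57 in the control and SQH libraries. With SQH the assembly list had medians of 0.09 against the exercise control and -0.17 against the control.

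The later complexes gave medians near 0 in exercise control against control, 0.10 for 9 genes of complex III, 0.09 for 13 of complex IV and 0.05 for 16 of ATP synthase. No gene of complex III, complex IV or ATP synthase was called at 2-fold in that comparison. Complex II had a median of -0.23 over 4 genes, among which Sdhd stood at 9.69, 5.86 and 10.60. In SQH against the exercise control the same medians were -0.095, 0.06, 0.10 and 0.25. Cox7c, a small subunit of complex IV, stood at 11.56, 10.63 and 11.75, the same order of libraries as Ndufb3, with 1.12 ± 0.04 between SQH and exercise control. Atpif1, which inhibits ATP synthase, stood at 6.42, 5.61 and 6.83 (1.22 ± 0.25 between the same libraries). Atp5g1, which encodes a subunit of its rotor ring, was higher by 1.08 ± 0.04 with SQH against the control. The summed linear level of the assembly list was 8279, 7479 and 7662, that of complex III 48590, 49318 and 47084 and that of ATP synthase 96406, 98398 and 104504. The slow-fibre list, by contrast, had medians of -3.42, 3.10 and -0.33 in the 3 comparisons and the fast-fibre list 0.42, -0.745 and -0.29. Medians of the other cell type lists, in the same order, were 0.23, -0.18 and 0.01 for endothelium, 0.27, 0.03 and 0.45 for fibroblasts and matrix, and 0.015, -0.34 and -0.31 for smooth muscle and pericytes. They were 1.20, -0.04 and 1.19 for tendon, -0.28, 0.095 and -0.21 for erythroid cells, -0.21, 1.095 and 0.39 for adipocytes and 1.85, -1.79 and 0.05 for nerve, while 1 of 10 leukocyte markers passed the minimum. No difference between these lists and the complex I genes was tested.

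**Figure D4:**
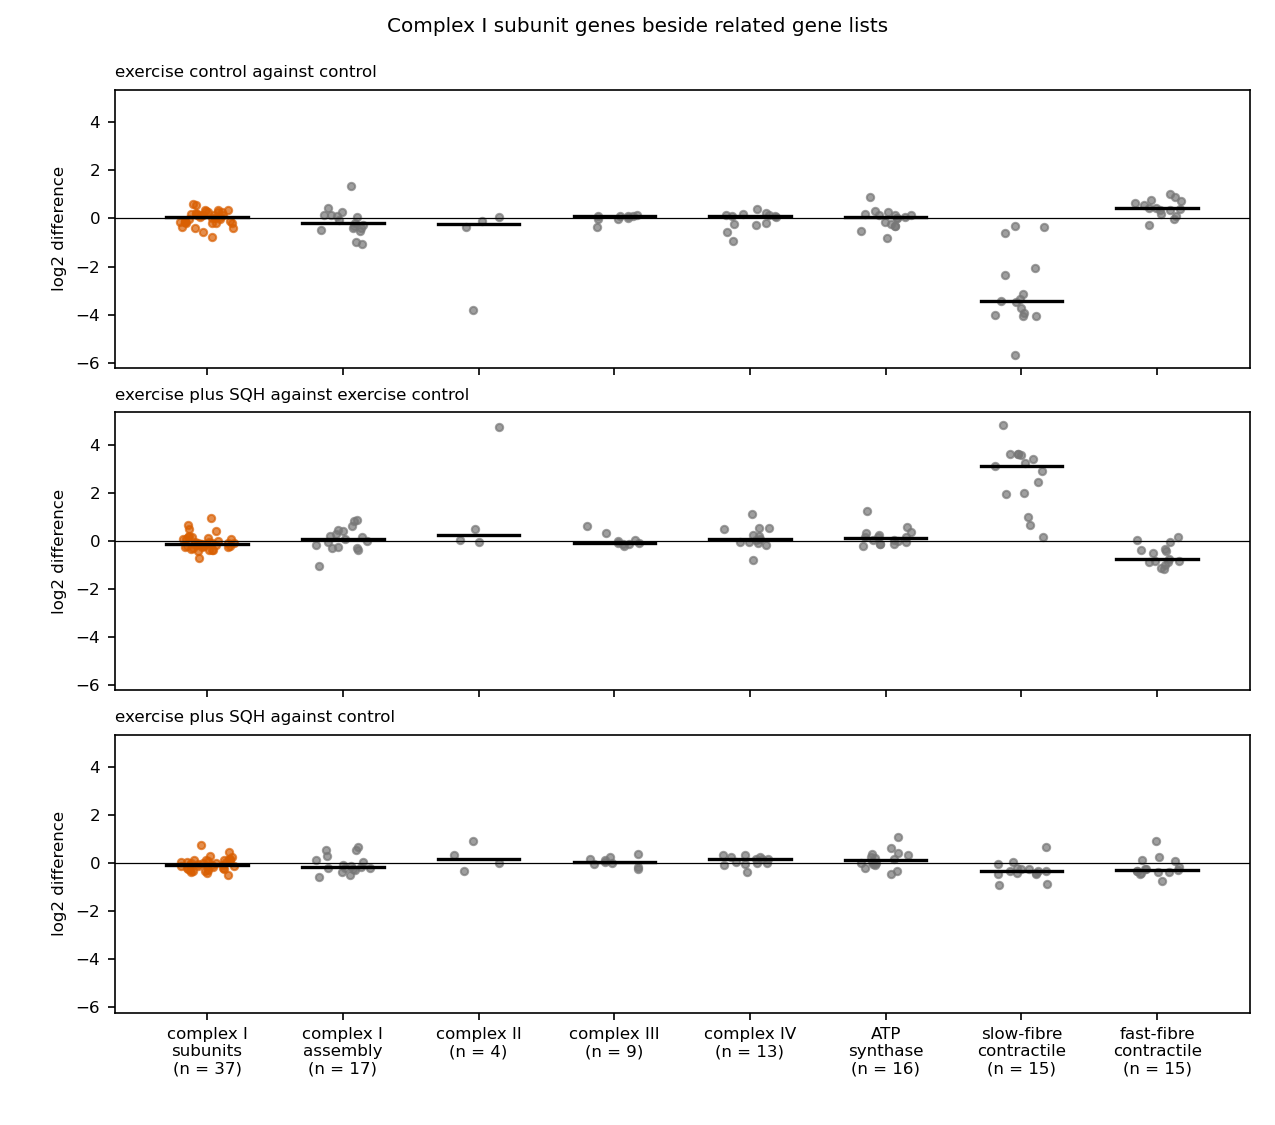
Log2 difference (vertical axis) of single genes (points) and their median (black bars) for complex I subunits (orange) and other lists (grey), 1 panel per comparison, with the number of genes past the minimum under each list. Complex I subunits stay between -0.79 and 0.93 in all panels, with medians of 0.07, -0.12 and -0.06, while slow-fibre genes have medians of -3.42, 3.10 and -0.33.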

How the data were processed

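RNA of mouse skeletal muscle went into Lexogen QuantSeq 3' libraries, per the labels' protocols. The deposited values are log2 levels per gene row, in 1 file for each library, and the headers give no unit. Bowtie2, edgeR and mm10 are named in the submitters' processing notes without versions or roles. Which counter, gene annotation or filter was used, and whether strand was kept in counting, is not stated in these labels or headers. Linear values bunch at multiples of a step (0.94, 1.181 and 0.77 (control, exercise control, SQH)). Of the low values, 100%, 96.5% and 86.4% lay within 0.2 of a step from a multiple, so the fit was weakest for SQH. Dividing by the step gave approximate reads and the counting standard error of a log2 difference, so no count model was fitted. Groups come from the titles. Rows with a mean linear level of at least 66.5 were kept, and a gene was called by size alone at 2-fold, or at 1.5-fold as a lower mark. Genes given value by value were the nuclear core, those past 1.5-fold, the 5 highest and 5 lowest differences of each comparison, the 3 highest and 3 lowest levels, Ndufa4, Ndufa4l2 and Ndufab1. Assembly, complex II to V, fibre and cell type lists were described by counts and up to 4 called members. Other genes named (Acta1, Ckm, Fabp4, Plin4, Nubpl, Nrf1, Yy1, Ndufa5, Ndufa6, Ndufa7, Ndufa11, Ndufb2, Ndufb4, Ndufb5, Ndufc2, Ndufv3 and genes overlapping or resembling a subunit gene) were chosen after their values were seen. One gene entered the counts and medians but is not reported here. Members and lists were chosen with earlier results of these data known. Positions, overlaps and transcript similarity (blastn, at least 95% identity over 100 bases) come from GENCODE for GRCm38, the assembly called mm10, and promoters from RefSeq. Python 3.11.15, pandas 2.3.3 and numpy 2.4.6 were used. Calls by size were checked on simulated data that held read-counting noise alone. That check covers no variation between animals or library preparations.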

Additional observations from a re-analysis of the deposited data

How the results depend on the processing

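With 1 library per group none could be left out, and no alternative measures variation between animals. No paired analysis was possible because each group has 1 library and the labels give no replicate numbers. Values below are in the order exercise control against control, SQH against exercise control, SQH against control. At 1.5-fold the genes called higher were 1, 2 and 1 and those called lower 1, 1 and 0, where 2-fold called 0 in each. In the first comparison, centring on the median, quantile normalization and an equal linear sum without Rn45s each gave 2 genes higher by 1.5-fold. In the second, centring, quantile normalization and leaving out Ndufa4 and Ndufa4l2 each gave 1. For SQH against control, the minimum at the upper quartile gave 0. Leaving out genes with exonic overlap kept 21 genes, of which 7, 7 and 8 were above 0. It gave 0 genes higher by 1.5-fold in the first and last comparison and 0 lower in the second, and turned the first median to -0.109. Among all rows past the minimum, the first comparison called 232 higher and 419 lower at 2-fold, and 293 and 348 after centring. The second called 446 and 183, and 375 and 236 after centring. SQH against control called 138 and 99, and 167 and 75 with equal sums. A pseudocount of 8 and no minimum on level moved no count or median of the complex I genes past its limit. Of the 37 differences, 34 to 37 kept their sign under each scaling or pseudocount, and no gene past 1.5-fold changed sign. Depth limits Ndufab1 and Ndufa4l2 the most.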

Other observations

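Regulators of mitochondrial genes lay on both sides of the control in the exercise control, 4 above and 9 below among those past the minimum. Of 16 regulators 13 passed the minimum, with medians of -0.22, 0.25 and -0.04 in exercise control against control, SQH against exercise control and SQH against control. Nrf1, whose motif was found for 7 of the 33 genes with a promoter window, stood at 6.49 (control), 7.20 (exercise control) and 7.03 (SQH). Those 7 genes, among them Ndufs6 and Ndufs5, lay on both sides of the control in the exercise control. Yy1, whose motif is also in the Ndufs6 window, stood at 8.55, 8.33 and 8.18. No link between these levels and the motifs was tested. Esrrg, an estrogen-related receptor of oxidative muscle, stood at 8.32, 7.24 and 8.13 and Esrrb, its relative, at 6.73, 5.25 and 6.44, both lowest in the exercise control. Ppargc1a, the coactivator of these receptors, stood at 10.75, 11.35 and 12.41, while the median of the 37 complex I genes stayed between 11.24 and 11.45.

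Annotated 3' ends, near which reads of 3' libraries lie, were within 10 bases of each other in GENCODE and RefSeq for 24 of the 38 genes. They were more than 100 bases apart for 10. The widest gaps were 3539 bases for Ndufb2, -2107 for Ndufa11 (GENCODE shorter) and 1412 for Ndufab1. Exonic bases were shared with another gene by 17 of the 38 and near-identical 3' ends with another gene by 10. Ndufb5 shares 616 bases with Mrpl47 on the opposite strand, and Mrpl47 stood at 8.05, 8.52 and 7.47 where Ndufb5 stood at 11.78, 11.92 and 11.89.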
